A study of Homo sapiens with 6 samples.

Results

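The genes described here are 7 formins (DIAPH1, DIAPH2, DIAPH3, FHOD1, FHOD3, DAAM1 and DAAM2), the cofilins CFL1 and CFL2, and profilin 1, PFN1. They were taken by gene symbol from the deposited table, which held all 10 among 28092 genes, and all 10 were among the 19558 genes with enough counts to test. Polyadenylated RNA had been sequenced from cardiomyocytes grown out of H9 cells, a widely used line of human embryonic stem cells. There were 3 wild-type samples and 3 knockout samples of ADPRHL1, a heart-enriched pseudoenzyme of the ADP-ribosylhydrolase family. All were collected no later than 3 days after re-seeding. How the knockout was made, and from how many clones, no source used here says. The question was why focal adhesions fail to form without ADPRHL1, and the title of the study ties the gene to ROCK, a kinase that acts through actin and myosin.

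Formins bind the growing end of an actin filament and both start and lengthen unbranched filaments. Profilin delivers actin monomers to them. Cofilins work in the opposite sense: they bind ageing filaments, sever them and return monomers to the pool. The diaphanous formins DIAPH1, DIAPH2 and DIAPH3 are held shut by contacts within the protein until a signal opens them. ROCK activates LIM kinases, which phosphorylate and inactivate cofilin. In heart muscle FHOD3 and CFL2 are the muscle-enriched members of their families, and FHOD3 is needed to assemble and keep sarcomeres.

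The samples held between 21179650 and 21405718 estimated counts each. ADPRHL1 itself lay between 79.4 and 83.7 CPM (counts scaled to a common library size with TMM factors) in wild type and between 5.81 and 7.56 in knockout, so every library had the level its label gives. All 16 cardiomyocyte markers were detected in both groups and all 16 fell in knockout (median log2 fold change -1.93), their summed level going from between 17040 and 17281 CPM to between 4594 and 4890 CPM. Of 12 fibroblast markers 9 rose and 3 fell (75% and 25%; median 0.95), with sums of 11054 to 11321 CPM in wild type, against 15072 to 17841 CPM in knockout. Of all tested genes 28.4% were higher and 28.6% lower in knockout, at the threshold given below. In bulk RNA, fewer cells of a type and less RNA per cell cannot be told apart, and the part of such shifts in the results that follow was not tested. Whether replicates came from separate cultures is not stated, so p-values reflect only how far these samples spread, possibly for technical reasons.

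All 10 genes differed between knockout and wild type at an adjusted p under 0.05 (edgeR, quasi-likelihood, Benjamini-Hochberg over all tested genes). PFN1, CFL1, DIAPH1, DIAPH2, FHOD1 and DAAM2 were higher in knockout, and FHOD3, DAAM1, CFL2 and DIAPH3 were lower. The genes thus moved both ways within each family: 4 formins rose and 3 fell, and CFL1 rose while CFL2 fell. Calls were common in this comparison, with 57.0% of all tested genes passing, 28.4% higher and 28.6% lower. Among the 11420 genes at least as abundant as DIAPH3, the scarcest of the 10, the share was 65.8%. The 3 knockout values and the 3 wild-type values did not overlap for any of the 10, as for 64.4% of all tested genes. The median change of the 10 was 0.25 on the log2 scale, against 0.001 over all tested genes, and the median size of change regardless of direction was 0.50 against 0.38. By 2-fold or more, 2 of the 10 were lower (6.02% of all tested genes) and 0 were higher (10.1% of all tested genes).

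**Figure D1:**
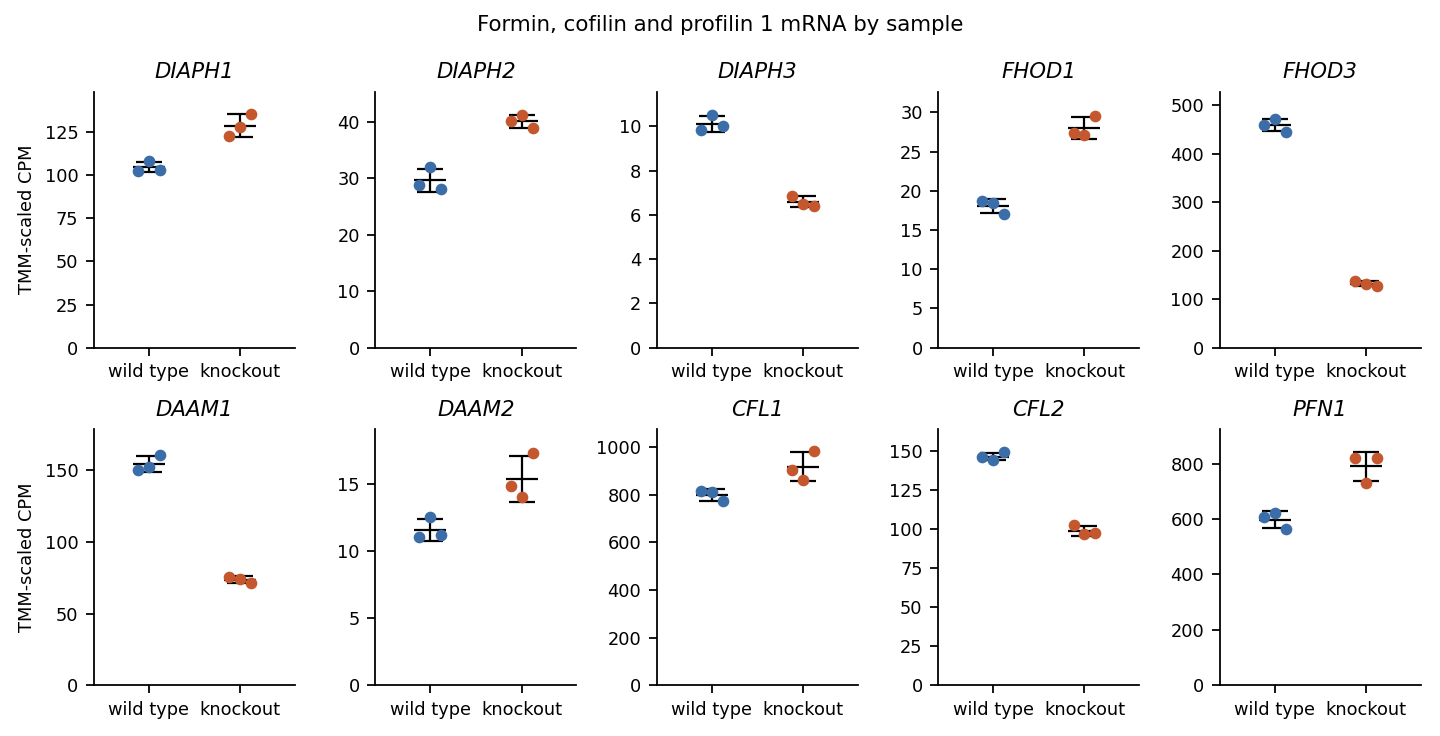
TMM-scaled CPM of each gene (vertical axes from 0, a scale of its own for each gene) in 3 wild-type and 3 knockout samples; points are samples, bars the mean and SD. The groups are apart for every gene, most widely for FHOD3, at 445.9 to 471.4 CPM in wild type, against 126.7 to 136.6 CPM in knockout.

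FHOD3, the cardiac formin of the sarcomere, changed most. It lies on chromosome 18 from 36297713 to 36780220 (hg38, as are all coordinates here, from RefSeq). Its level was 459.8, 471.4 and 445.9 CPM in the wild-type samples, against 136.6, 131.9 and 126.7 CPM in the knockout samples. Even the lowest wild-type sample was more than 3-fold above the highest knockout sample, and replicates within a group lay close together. The mean went from 459.1 ± 12.8 to 131.7 ± 4.93 CPM (SD, n = 3), a 3.48-fold fall (log2 fold change -1.80, SE 0.0494, adjusted p = 2.87e-11). Only 1.51% of tested genes had a lower log2 fold change. FPKM, a level per transcript length, was 76.7 ± 1.88 in wild type, against 22.6 ± 1.12 in knockout (SD, n = 3). TNNT2, the cardiac troponin T gene and a cardiomyocyte marker, changed by -1.65 (SE 0.0542), and the median of the 16 cardiomyocyte markers was -1.93. At its 3′ end FHOD3 overlaps TPGS2 on the other strand over 2574 bases (GENCODE gene spans), a gene at 58.6 CPM in wild type, against 47.2 CPM in knockout. No source says that the libraries kept strand, so for this and the further overlaps given here, reads from the shared bases cannot be assigned to a strand. Of 129 other genes of the actin system and of cell division tested here, the 3 closest to FHOD3 in centred log2 CPM over the 6 samples were CORO6, LMOD1 and ACTA1, with root mean square differences of 0.0385, 0.110 and 0.138. CORO6 encodes a coronin, LMOD1 a leiomodin and ACTA1 skeletal muscle alpha-actin, and since the samples fall into 2 groups this likeness largely restates that they fell too, at log2 fold changes of -1.73, -1.63 and -1.55.

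FHOD1, the broadly expressed relative of FHOD3 and a ROCK substrate that acts on stress fibres, went the other way. Its level was 18.7, 18.4 and 17.0 CPM in wild type, against 27.4, 27.1 and 29.6 CPM in knockout (chromosome 16, 67229389 to 67247481). All knockout samples were higher, with a mean of 28 ± 1.34 CPM against 18 ± 0.891 CPM (log2 fold change 0.64, SE 0.0724, adjusted p = 1.02e-05). This was the largest rise among the 10. FHOD1 overlaps SLC9A5 on the other strand over 9799 bases, and SLC9A5 stood at 4.62 CPM in wild type, against 5.93 CPM in knockout. Per length, FHOD3 made up 93.4, 94.4 and 94.0% of the summed FPKM of both genes in the wild-type samples and 76.5, 74.7 and 71.7% in the knockout samples. FHOD3 thus stayed the more abundant FHOD transcript in every sample while its share dropped by 19.7 percentage points. An exact permutation test over samples gave p = 0.10, the smallest that 3 against 3 samples allow, and 0.120 after Benjamini-Hochberg adjustment over 6 such shares.

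DAAM1, a formin activated through Dishevelled in Wnt planar polarity signalling, was the other strong faller. It stood at 150.0, 151.9 and 160.8 CPM in wild type, against 75.7, 73.9 and 71.1 CPM in knockout (chromosome 14, 59188667 to 59371405). No sample came near the other group, and the fall was 2.10-fold (-1.07, SE 0.0502, adjusted p = 2.68e-09), with 5.97% of tested genes lower. DAAM2, its scarcer relative, rose, at 11.0, 12.5 and 11.2 CPM in wild type, against 14.8, 14 and 17.3 CPM in knockout (chromosome 6, 39792376 to 39904869). The gap between the groups was narrow for DAAM2, with 12.5 CPM the highest wild-type and 14 CPM the lowest knockout value (0.41, SE 0.104, adjusted p = 0.00450). On log2(FPKM + 1) its call ended (0.24, limma adjusted p = 0.0565). DAAM2 also overlaps MOCS1 on the other strand over 5292 bases, a gene at 11.9 CPM in wild type, against 11.3 CPM in knockout. DAAM1 held 93.5 ± 0.619% of the summed FPKM of both DAAM genes in wild type, against 85.0 ± 2.41% in knockout (SD, n = 3; exact permutation p = 0.10, adjusted 0.120).

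The 3 diaphanous formins split. DIAPH1, a formin that helps to build stress fibres, stood at 102.6, 108.2 and 103.3 CPM in wild type, against 122.9, 127.9 and 135.8 CPM in knockout (chromosome 5, 141515021 to 141619000). Every knockout sample was above every wild-type sample, by a modest 1.23-fold on average (0.30, SE 0.0518, adjusted p = 3.34e-04). DIAPH3, which takes part in filopodia and cell division, fell, from 9.83, 10.5 and 10 CPM to 6.87, 6.5 and 6.39 CPM (chromosome 13, 59665583 to 60163928; -0.62, SE 0.108, adjusted p = 3.78e-04). It was the scarcest of the 10 genes by count, with 136 to 222 estimated counts a sample. Of 20 proliferation genes 16 fell in the same samples and 0 rose (median -0.60), 80% lower against 28.6% of all tested genes. Those that fell included MKI67, from 32.0 ± 1.92 to 14.9 ± 1.04 CPM, and ANLN, an actin-binding protein of the cleavage furrow (-1.33). The summed level of the proliferation genes was 572.5 to 577.9 CPM in wild type, against 382.0 to 409.3 CPM in knockout, and the part of cell division in the fall of DIAPH3 was not tested.

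DIAPH2 rose in counts but did not pass on FPKM. In CPM it stood at 28.8, 32.0 and 28.2 in wild type and 40.2, 41.3 and 38.9 in knockout (chromosome X, 96684842 to 97604997; 0.43, SE 0.0658, adjusted p = 1.16e-04). In FPKM the wild-type samples stood at 4.64, 5.97 and 3.6 and the knockout samples at 5.07, 4.97 and 5.41, so the knockout samples lay inside the wild-type range. On log2(FPKM + 1) the change was 0.12 and did not pass (limma adjusted p = 0.485). An antisense gene, DIAPH2-AS1, spans 173712 bases of it and stood at 0.362 CPM in wild type, against 0.591 CPM in knockout. The length implied by count, depth and FPKM ran from 5323 to 7781 bases in the wild-type samples and from 7142 to 8504 bases in the knockout samples. The share of DIAPH2 in the FPKM of the 3 DIAPH genes, 20.8 ± 3.72% in wild type and 19.1 ± 0.391% in knockout, overlapped between groups (exact permutation p = 0.700). DIAPH1 took 69.1 ± 3.05% of that sum in wild type and 75.3 ± 0.530% in knockout, and DIAPH3 10.1 ± 0.766% and 5.58 ± 0.186% (SD, n = 3; exact permutation p = 0.10 for each, adjusted 0.120). As a log2 ratio of counts, the change was 0.07 for DIAPH1 against its relatives (exact permutation p = 0.50) and -0.95 for DIAPH3 (exact permutation p = 0.10).

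**Figure D2:**
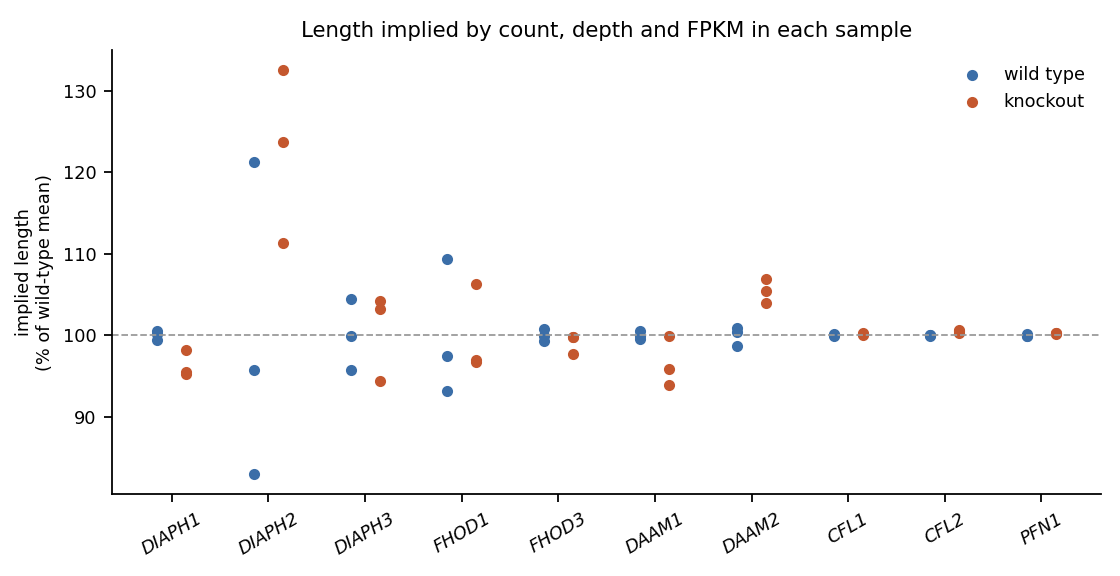
Length implied by estimated count, sample total and FPKM for each gene in each sample, as a percentage of the gene's wild-type mean (vertical axis); points are the 3 wild-type and 3 knockout samples. CFL1, CFL2 and PFN1 hardly spread, whereas DIAPH2 runs from 5323 to 8504 bases over the 6 samples.

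For the other genes the mean implied length moved by 5.46% (DAAM2) or less between groups. It averaged 1059 ± 0.658 bases in wild type and 1060 ± 1.34 bases in knockout for CFL1, and 5933 ± 46.1 and 5879 ± 74.4 bases for FHOD3 (SD, n = 3). DAAM2 was longer in every knockout sample, at 6710 ± 95.6 against 6363 ± 77.8 bases, and DIAPH1 shorter in every knockout sample, at 6403 ± 107.8 against 6649 ± 37.6 bases. These lengths rest on reading the deposited expression values as FPKM, a unit the table does not name.

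The formins together were less abundant per length in knockout. Over 14 formin genes, the 7 above with FMNL1, FMNL2, FMNL3, FMN1, FMN2, INF2 and GRID2IP, FPKM summed to 155.7, 158.1 and 155.5 in the wild-type samples and 104.8, 108.6 and 108.3 in the knockout samples. Without FHOD3 the sums were 79.8 ± 1.28 and 84.6 ± 2.69, and without FHOD3 and DAAM1 they were 53.6 ± 0.770 and 71.5 ± 3.35 (SD, n = 3). The lower total thus lay in FHOD3, since the other 13 genes summed to 78.4 to 80.9 in wild type, against 81.7 to 87.0 in knockout. DAAM1 fell too, and the remaining 12 genes summed to more in every knockout sample. FHOD3 alone made up 49.0 ± 0.922% of formin FPKM in wild type and 21.1 ± 1.24% in knockout. DIAPH1 went from 9.98 ± 0.260% to 18.9 ± 0.703% and INF2, a formin that both builds and severs filaments, from 8.62 ± 0.426% to 18 ± 0.460%. The order of levels changed with it. In wild type FHOD3 led DAAM1 and DIAPH1 with no overlap of samples, whereas in knockout FHOD3 (21.3 to 23.3 FPKM) and DIAPH1 (19.4 to 21.3 FPKM) touched and both lay above DAAM1 (12.1 to 13.8 FPKM). Among all 10 genes CFL1 and PFN1 stood highest in both groups, and in wild type the ranges of FHOD1 and DIAPH2 overlapped.

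**Figure D3:**
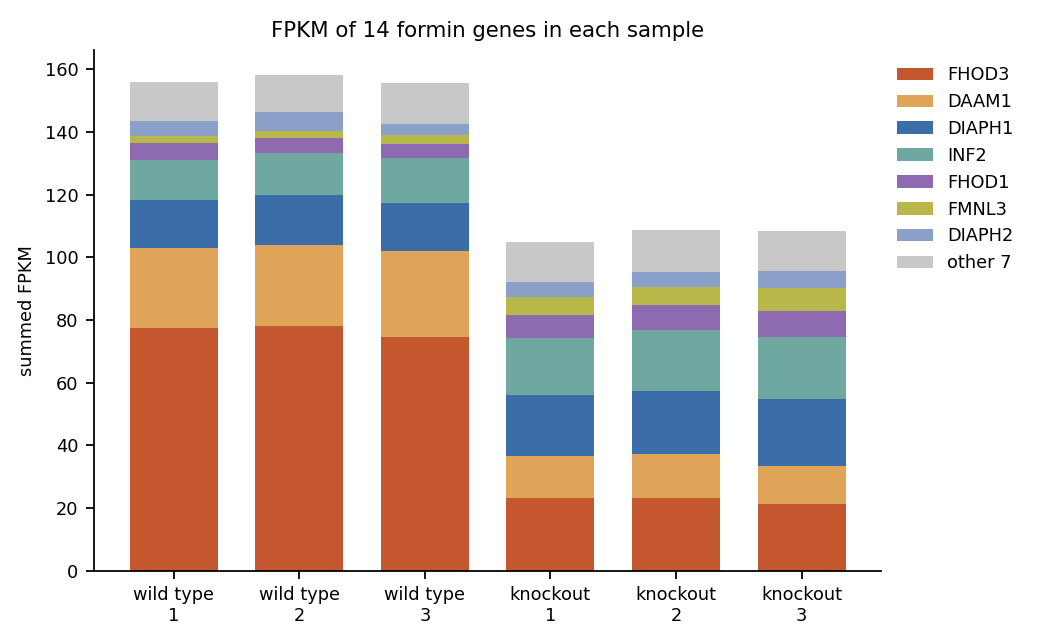
FPKM of 14 formin genes stacked for each of 3 wild-type and 3 knockout samples (vertical axis, summed FPKM; the grey block sums DIAPH3, DAAM2, FMNL1, FMNL2, FMN1, FMN2 and GRID2IP). The total is 155.5 to 158.1 in wild type and 104.8 to 108.6 in knockout, and the FHOD3 block shrinks most.

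Of the 7 further formins 4 rose, 1 fell and 2 did not pass (57.1% higher against 28.4% of all tested genes; median 0.27). FMNL3, a formin of filopodia and blood vessel cells, rose from 30 ± 2.71 to 75.3 ± 11.1 CPM (1.33, SE 0.115), and INF2 rose from 64.2 ± 3.11 to 89.7 ± 2.36 CPM (0.48, SE 0.0525). Endothelial markers moved in the same samples, 8 of 10 up and 1 down (80% and 10%, against 28.4% and 28.6% of all tested genes). Over the alternatives, between 6 and 8 of the 10 were higher. CDH5 and VWF, both higher, had wild-type means of only 0.708 and 0.944 CPM. The markers summed to 210.3 to 214.2 CPM in wild type, against 352.0 to 390.9 CPM in knockout. KDR alone had means of 169.7 and 210.2 CPM. The part of these markers in the rise of FMNL3 was not tested. FMNL2 rose by less (0.27, adjusted p = 0.00907), though not on FPKM without a filter (limma adjusted p = 0.0690), and GRID2IP, mainly known from neurons, rose at a low level, from 0.960 ± 0.278 to 3.24 ± 0.800 CPM. FMNL1, a formin of blood cells, was lower (-0.49, adjusted p = 0.0294), a call that ended under DESeq2 (adjusted p = 0.138) and without wild-type replicate 1 (0.0718) or 3 (0.0912), or knockout replicate 2 (0.0601) or 3 (0.0660). FMN1 (0.24, adjusted p = 0.364) and FMN2 (-0.08, adjusted p = 0.560) did not pass.

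The cofilins moved in opposite directions. CFL1, the non-muscle cofilin (chromosome 11, 65854673 to 65858180), stood at 815.3, 811.3 and 771.6 CPM in wild type, against 903.5, 863.6 and 984.1 CPM in knockout. The knockout samples were all higher, but by 1.15-fold only (0.20, SE 0.0553, adjusted p = 0.00841), and without wild-type replicate 3 the call ended (0.16, adjusted p = 0.0585). CFL2, the muscle cofilin (chromosome 14, 34709113 to 34714593), stood at 145.8, 144.2 and 149.0 CPM in wild type, against 102.4, 96.6 and 97.5 CPM in knockout. That is a 1.48-fold fall with a wide gap between the groups (-0.57, SE 0.0468, adjusted p = 5.83e-07). The 95% interval of the change was -0.67 to -0.46 for CFL2 and -1.91 to -1.69 for FHOD3, and the difference between the changes was not tested. Per length CFL1 dominated in every sample: CFL2 took 5.73, 5.70 and 6.17% of the summed FPKM in wild type and 3.70, 3.65 and 3.25% in knockout (exact permutation p = 0.10, adjusted 0.120). The CFL1 gene overlaps MUS81 on the other strand over 1055 bases, which stood at 52.7 CPM in wild type, against 47.2 CPM in knockout, and SNX32 over 2224 bases, at 1.23 and 2.22 CPM. GENCODE names 8 pseudogenes of CFL1, of which the table lists 1, so how reads shared with these copies were counted makes its level uncertain.

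PFN1, which hands actin monomers to formins (chromosome 17, 4945652 to 4948530), stood at 606.1, 621.7 and 563.3 CPM in wild type, against 820.0, 730.6 and 819.1 CPM in knockout. The lowest knockout sample was above the highest wild-type sample, a 1.32-fold rise (0.40, SE 0.0584, adjusted p = 8.03e-05). PFN1 overlaps the start of ENO3, a muscle enolase gene on the other strand, over 439 bases. ENO3 went the opposite way, from 171.8 CPM in wild type to 71.4 CPM in knockout. GENCODE names 10 pseudogenes of PFN1, with 0 in the table, so its level carries the same uncertainty.

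**Figure D4:**
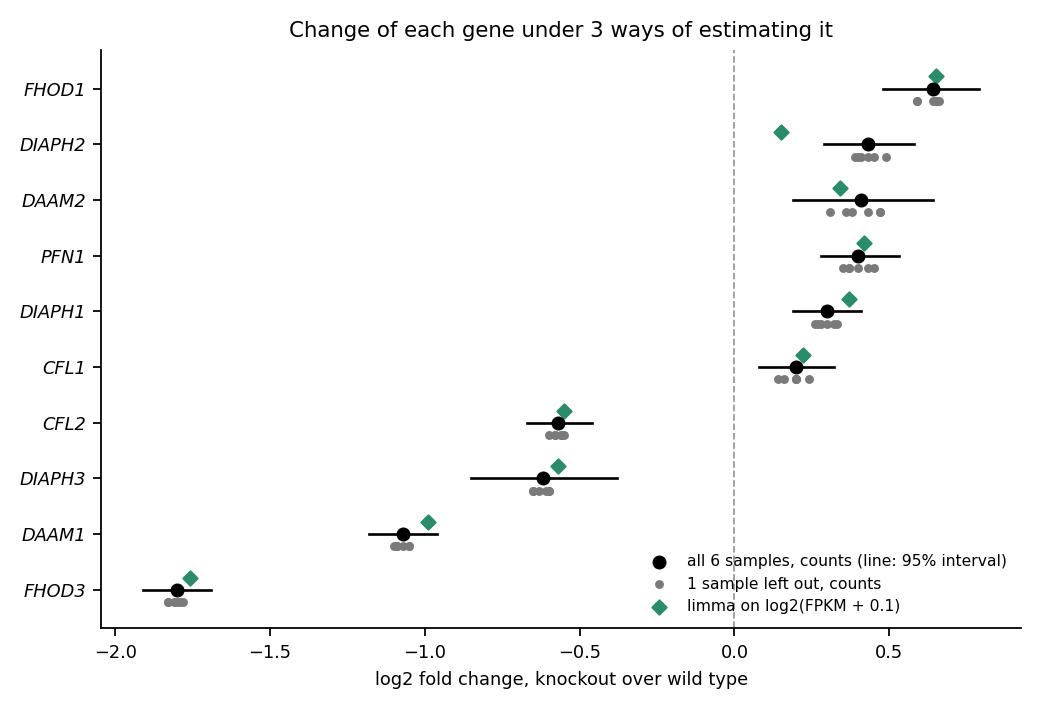
Log2 fold change, knockout over wild type (horizontal axis), of each gene. Black points use all 6 samples with edgeR on counts and lines are 95% intervals, grey points leave out 1 sample each, and green diamonds use limma on log2(FPKM + 0.1). The diamond of DIAPH2 lies outside its interval, at 0.15 against 0.43.

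The promoter windows of the FHOD and cofilin pairs are shown because these paralogs moved in opposite directions. Each window runs from 250 bases before to 50 bases after the RefSeq start (GRCh38.p14), 5′ to 3′ on the strand of the gene, with capitals marking CCAAT or its reverse complement ATTGG. The windows are FHOD3 at chr18:36297463-36297762 (plus strand), FHOD1 at chr16:67247432-67247731 (minus), CFL2 at chr14:34714544-34714843 (minus; the upstream of 2 starts) and CFL1 at chr11:65858131-65858430 (minus).
FHOD3: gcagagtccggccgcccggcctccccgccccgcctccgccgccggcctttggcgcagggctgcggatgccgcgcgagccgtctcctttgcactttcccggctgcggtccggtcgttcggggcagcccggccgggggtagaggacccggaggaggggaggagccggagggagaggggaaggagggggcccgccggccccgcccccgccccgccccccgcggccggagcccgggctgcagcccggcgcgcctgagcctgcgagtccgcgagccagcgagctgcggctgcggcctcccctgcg
FHOD1: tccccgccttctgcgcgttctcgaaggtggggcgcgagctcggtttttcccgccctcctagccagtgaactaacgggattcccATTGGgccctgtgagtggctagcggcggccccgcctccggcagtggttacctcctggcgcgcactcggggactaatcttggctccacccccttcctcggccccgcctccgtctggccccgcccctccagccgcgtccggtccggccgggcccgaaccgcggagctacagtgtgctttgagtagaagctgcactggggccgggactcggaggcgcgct
CFL2: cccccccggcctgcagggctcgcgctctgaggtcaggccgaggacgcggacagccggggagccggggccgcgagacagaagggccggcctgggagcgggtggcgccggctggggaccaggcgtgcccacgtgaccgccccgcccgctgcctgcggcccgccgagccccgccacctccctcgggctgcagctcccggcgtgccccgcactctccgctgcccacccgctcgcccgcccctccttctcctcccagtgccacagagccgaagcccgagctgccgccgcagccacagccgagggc
CFL1: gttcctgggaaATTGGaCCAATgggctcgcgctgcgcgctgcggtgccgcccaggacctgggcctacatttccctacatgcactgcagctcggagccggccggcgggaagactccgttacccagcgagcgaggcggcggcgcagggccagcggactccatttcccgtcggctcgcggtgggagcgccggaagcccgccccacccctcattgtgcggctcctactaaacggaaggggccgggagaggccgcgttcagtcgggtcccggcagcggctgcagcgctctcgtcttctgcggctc
FHOD1 held 1 CCAAT box and CFL1 held 2 in opposite orientation, whereas the windows of FHOD3 and CFL2 held none. The FHOD3 and CFL2 windows printed here were the GC-richest of the 14 windows of the 10 genes, at 81.0% and 79.3%, against 69.7% for FHOD1, 70.0% for CFL1 and a median of 58.7% over 35116 windows. The window at the downstream start of CFL2 was the least GC-rich of the 14, at 43.3%. In the DAAM pair, which also moved in opposite directions, the upstream windows held 60.7% GC for DAAM1, which fell, and 64.3% for DAAM2, which rose. The split did not extend to the other genes: a CCAAT box stood in 5 of the 14 windows, and in 34.6% of all windows. These 5 windows belonged to 5 of the 10 genes, among them DAAM1 and DIAPH3, which fell. The other motifs searched on both strands were the CArG box, the MEF2 element, the TEAD element GGAATG and the TATA box TATAAA. The CArG box, which SRF binds, and the TATA box had no match in any of the 14 windows of the 10 genes, and stood in 1.29% and 11.5% of all windows. An MEF2 element matched in 1 window (DIAPH3, downstream start; 2.99% of all windows) and the TEAD element in 2 (PFN1 and DIAPH3, downstream start; 14% of all windows). Motifs and windows were chosen after the changes were known, and a match in letters does not show that a factor binds.

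Of 19 tested genes that regulate cofilin or work beside it, 11 rose and 4 fell (57.9% and 21.1%, against 28.4% and 28.6% of all tested genes; median 0.22). Over the alternatives, between 9 and 12 of the 19 were higher. LIMK1, a kinase that inactivates cofilin, rose from 49.8 ± 1.16 to 83.2 ± 3.00 CPM (0.74, SE 0.0511), while LIMK2 did not pass (50 ± 2.52 and 48.0 ± 3.03 CPM, adjusted p = 0.471). Among the slingshot phosphatases, which reactivate cofilin, SSH2 fell from 121.0 ± 1.51 to 82.8 ± 7.07 CPM (-0.55) and SSH3 fell by 0.42 on the log2 scale. SSH1 was higher by 0.15 (adjusted p = 0.0194), but no longer passed when wild-type replicate 1 (0.128) or 3 (0.0787), or knockout replicate 2 (0.0600), was left out. The cyclase-associated proteins, which recycle actin with cofilin, split as the cofilins did: CAP1 rose from 235.4 ± 5.28 to 382.5 ± 11.2 CPM (0.70), and the muscle-enriched CAP2 fell from 142.7 ± 3.47 to 76.0 ± 2.64 CPM (-0.91). The coronins CORO2B (0.81) and CORO6 (-1.73) also moved in opposite directions, and WDR1, a cofactor of cofilin, rose (0.34). DSTN, the other member of the cofilin family expressed here, was higher by 0.12 (adjusted p = 0.0436), a call that ended when any sample but knockout replicate 2 was left out (adjusted p from 0.0676 to 0.194).

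Among genes for monomer-binding proteins 2 of 6 tested rose and 3 fell (median -0.37). That is 33.3% and 50%, against 28.4% and 28.6% of all tested genes. TMSB4X, the main thymosin, rose from 589.3 ± 15.7 to 960.8 ± 49.5 CPM (0.71) and TMSB10 rose by 0.53. PFN2, a profilin expressed alongside PFN1, fell from 167.2 ± 2.71 to 134.1 ± 8.39 CPM (-0.32, SE 0.0530), the opposite of PFN1. PFN4, known from testis, fell from 2.72 ± 0.687 to 0.358 ± 0.0744 CPM, and TMSB15B fell by 0.41 in counts but did not pass on log2(FPKM + 1) (-0.20, limma adjusted p = 0.221).

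ROCK1, which encodes a kinase that activates LIM kinases, fell from 100.1 ± 4.68 to 75.9 ± 6.06 CPM (-0.40, SE 0.0628). Its relative ROCK2 (0.01, adjusted p = 0.926) and CDC42, a GTPase of filopodia (0.03, adjusted p = 0.621), did not pass. Of 11 genes for partners of formins 3 rose and 4 fell (median 0.04). These shares, 27.3% and 36.4%, were near the 28.4% and 28.6% of all tested genes. Of the 3 Dishevelled genes, whose products activate DAAM1, DVL1 rose (0.47) and DVL3 fell (-0.31). DVL2, named after its values were seen, was lower by less (-0.22, adjusted p = 0.0217), a call that ended under DESeq2 (0.0537), on FPKM (limma, 0.0826 to 0.129) and without wild-type replicate 2 (0.0580) or knockout replicate 2 (0.0751). The scaffold genes IQGAP1 (0.47) and BAIAP2 (0.52), both partners of DIAPH1, rose, and the microtubule-end genes CLIP1 (-0.54) and APC (-0.34) fell.

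The branched-filament and filament-end genes gave the context. For the counts in this paragraph, the shares over all tested genes were 28.4% higher and 28.6% lower. Of 25 Arp2/3 and WAVE genes 13 rose and 5 fell (52.0% and 20%; median 0.18). The Arp2/3 subunit gene ARPC1B rose from 47.8 ± 3.63 to 111.8 ± 9.06 CPM (1.23), as did WIPF1 (1.0) and CYFIP1 (0.42), whereas WASF1 (-1.08), CYFIP2 (-0.62) and ABI2 (-0.50) fell. Of 20 tested capping, severing and elongation genes 6 rose and 8 fell (30% and 40%; median -0.05), TMOD4 and LMOD3 having too few counts. The sarcomere pointed-end gene TMOD1 fell from 163.1 ± 5.38 to 62.3 ± 1.89 CPM (-1.39). LMOD1 (-1.63), which was also listed as a smooth muscle marker, and ENAH (-0.56) fell too. The capping and severing genes SCIN (2.30) and CAPG (1.13) rose, as did VASP (0.70). SCIN stood at a low level, at 1.95 ± 0.221 CPM in wild type, against 9.60 ± 0.690 CPM in knockout. Of 6 actin genes the cytoplasmic ACTB (0.38) and ACTG1 (0.98) rose and the muscle genes ACTC1 (-1.05), ACTA1 (-1.55) and ACTA2 (-0.96) fell. ACTG2, also a muscle actin gene and named after its values were seen, was higher by 0.46 but did not pass (adjusted p = 0.0549).

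**Figure D5:**
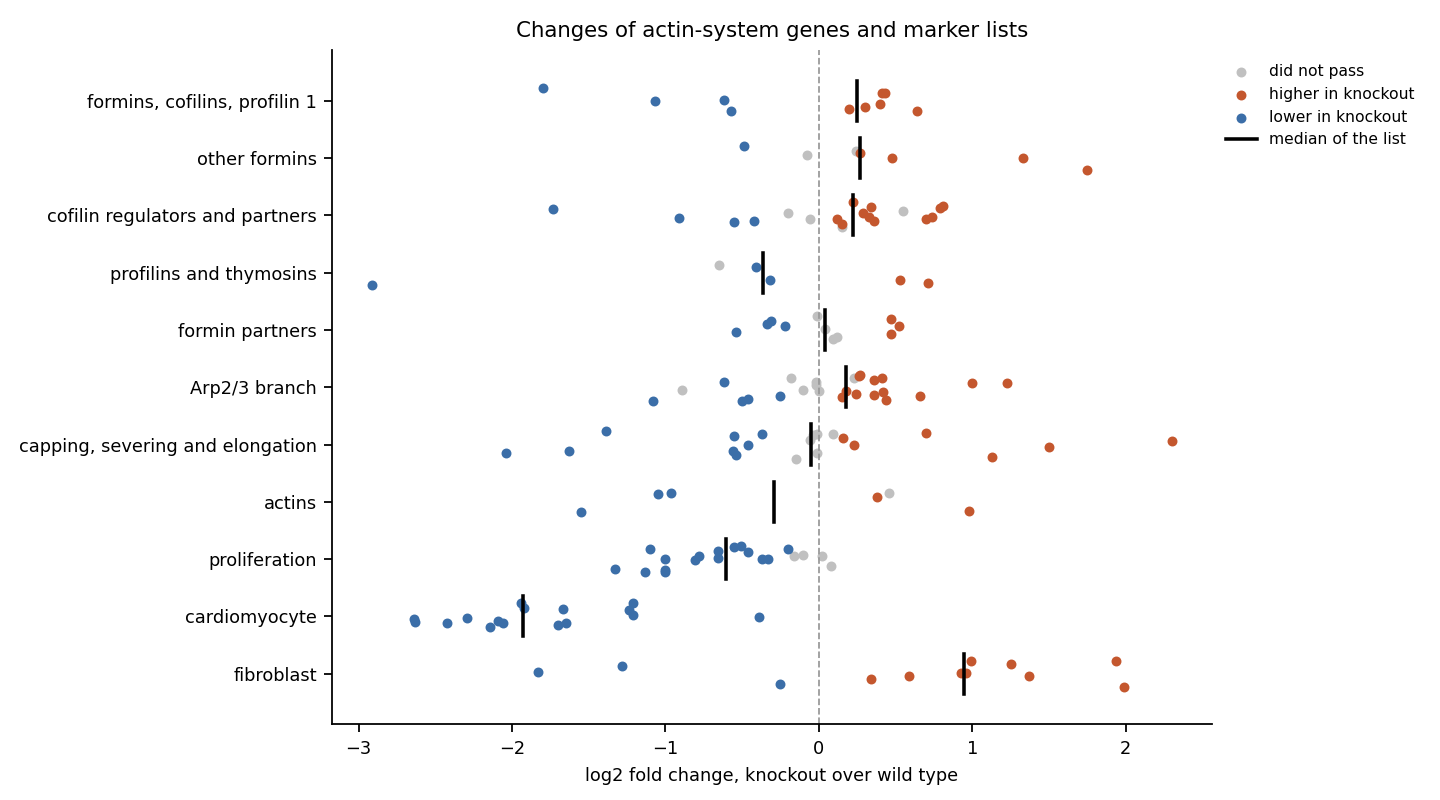
Log2 fold change, knockout over wild type (horizontal axis), of every tested gene of 9 actin-system and proliferation lists and 2 marker lists; each point is a gene, coloured by whether it passed at an adjusted p of 0.05, and black bars are list medians. Cardiomyocyte markers all lie below 0 (median -1.93), and the actin-system lists spread to both sides.

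Smooth muscle markers gave 4 of 10 higher and 6 lower (sums of 4355 to 4551 CPM in wild type, against 3903 to 4209 CPM in knockout). Endoderm and epithelial markers gave 4 of 8 higher and 1 lower (5273 to 5485 and 4747 to 5280 CPM), neural markers 1 of 5 higher and 4 lower (629.4 to 646.4 and 568.5 to 576.0 CPM), and skeletal muscle markers 2 of 4 lower (41.8 to 46.0 and 29.4 to 30.7 CPM). The skeletal muscle regulator MYOD1 was at 0 in every sample. For these marker counts, the shares over all tested genes were 28.4% higher and 28.6% lower.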

How the data were processed

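Sequencing was of oligo-dT selected RNA, per the labels' protocols. The submitters' processing notes name hg38; aligner, counter and strandedness were not stated there. Deposited by the authors were estimated counts per gene, of which 10.9 to 12.0% of those above 0 were exactly whole, with no tolerance, and expression values read here as FPKM from the values themselves. The deposited group means, unit score here, were not used.

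Rounded counts entered edgeR 4.0.16 (R 4.3.3): filterByExpr (minimum count 10, total 15), TMM, robust quasi-likelihood, genotype only, all 6 samples. Of 28092 rows 24137 had an Entrez ID and 23433 of these matched RefSeq. Rows without one took 12.9 to 14.9% of counts. Standard errors come from the F statistic. The common biological coefficient of variation was 0.0791. FPKM was tested with limma 3.58.1 after a pseudocount of 1 or 0.1, for genes at 1 FPKM or more in 3 samples. DESeq2 1.42.0 was an alternative. The script was checked on simulated data with known changes.

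The members and lists were chosen with earlier results of these data known. The rule named all 10 genes, up to 3 called genes each way per list, and a fixed set; not all are printed, and 1 list is not reported here. The formin sums, the abundance-limited background, the promoter windows and their motifs were added after the data were seen.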

Additional observations from a re-analysis of the deposited data

How the results depend on the processing

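Over 17 alternatives (scaling by total counts, by upper quartiles or by RLE, limma-voom, DESeq2, 3 limma fits on FPKM, no low-count filter, rows with an Entrez ID, the replicate number as a block, and each of 6 samples left out), all 10 genes kept their direction. FHOD3 ranged from -1.83 to -1.72 and DAAM1 from -1.10 to -0.94. Calls ended for DIAPH2 and DAAM2 on FPKM in all 3 fits (largest adjusted p = 0.571 and 0.111) and for CFL1 without wild-type replicate 3. Same-numbered samples did not deviate together (correlations -0.0135 to 0.0225). With the replicate number as a block, 6 genes were higher and 4 lower, as without it. Among the list genes the block ended the calls of DSTN (adjusted p = 0.105), FMNL1 (0.0532), KRT8 (0.0742), AURKB (0.0642), RRM2 (0.0611) and CDH5 (0.0751), which left 14 of 20 proliferation genes lower and 7 of 10 endothelial markers higher. For the share of DIAPH2 among the DIAPH genes, the difference of -1.61 points turned to a log2 ratio of 0.20 in counts, and ran from -3.52 to 0.205 points with 1 sample left out. Other reversals were of values near 0: CDC42 without wild-type replicate 2 (-0.02), FMN2 without wild-type replicate 3 (0.03; -0.18 to 0.03 with 1 sample left out), ROCK2 without the low-count filter (-0.02) and without wild-type replicate 2 or knockout replicate 1 (-0.10 to 0.07 with 1 sample left out), and LIMK2 on FPKM (0.05 to 0.06). TNNT3, a skeletal muscle marker lower in counts (-0.73, adjusted p = 9.14e-04), was at 0.02 to 0.03 on FPKM. Among the lists, formin partners had 5 higher on FPKM against 3 in counts, further formins 0 lower against 1 in 8 alternatives, endoderm 0 lower against 1 in 7 and skeletal muscle 1 lower against 2 on FPKM. FMNL1, the further formin that was lower, stood at 0.640 FPKM or less in every sample. It was therefore left out of the FPKM fits that had a filter. The other causes were not tested. Of 1637 refits of 97 named genes, 1582 kept direction and call, 44 lost the call and 11 reversed. DIAPH3, with 136 to 222 counts a sample, had the largest standard error of the 10 (0.108, against 0.104 for DAAM2). It passed in all 17 alternatives, whereas DAAM2 and DIAPH2 passed in 14 each.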
